A study of Rattus norvegicus with 19 samples.

Results

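The genes of arginine use followed here across 19 arrays of rat cells are *Ass1*, *Asl*, *Arg1*, *Arg2*, *Odc1*, *Nos1*, *Nos2* and *Nos3*, 8 of the 14217 genes with a named probe set on the array, and 9 probe sets carry one of their symbols alone. The genes were chosen by their place in arginine metabolism, and with levels measured on these same arrays already known, so what follows on their levels and differences is a description without a test. The arrays, from Sprague-Dawley rats, come from Leydig cells at the stem (n = 5), progenitor (n = 3), immature (n = 4) and adult (n = 4) stage and from bone stem cells (n = 3). Leydig cells are the testosterone-making cells of the testis, and the 4 Leydig groups are stages of their development. All groups share strain and RNA preparation, and no treatment or genotype sets them apart in the labels. The sources used here give no ages, isolation or culture, so a difference of stage and one of age, isolation or culture cannot be told apart. Whether each array is a separate animal or culture is not stated, and p-values therefore cover only the spread between the arrays, which may be technical.

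Arginine stands at a branch point. Argininosuccinate synthase (*Ass1*) joins citrulline and aspartate, and argininosuccinate lyase (*Asl*) splits the product into arginine and fumarate. In liver this pair makes the arginine of the urea cycle, and in most other tissues it remakes arginine from citrulline. Arginases (*Arg1* in the cytosol, *Arg2* in mitochondria) cut arginine into urea and ornithine, the step that closes the cycle in liver. Ornithine decarboxylase (*Odc1*) turns ornithine into putrescine, the first step of polyamine synthesis. The nitric oxide synthases, neuronal (*Nos1*), inducible (*Nos2*) and endothelial (*Nos3*), turn arginine into nitric oxide and citrulline. In Leydig cells nitric oxide is known mainly as a brake on steroid synthesis.

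The sequences just before the start of *Ass1* and *Odc1* are shown because both genes had their highest signal in adult Leydig cells, by different paths. Each is the 250 bases before the RefSeq gene start in the rat build GRCr8, 5′ to 3′ on the strand of the gene, which is the + strand for both: chr3:35149480-35149729 for *Ass1* and chr6:46058415-46058664 for *Odc1*. Capitals mark the letters of a searched motif.
Ass1: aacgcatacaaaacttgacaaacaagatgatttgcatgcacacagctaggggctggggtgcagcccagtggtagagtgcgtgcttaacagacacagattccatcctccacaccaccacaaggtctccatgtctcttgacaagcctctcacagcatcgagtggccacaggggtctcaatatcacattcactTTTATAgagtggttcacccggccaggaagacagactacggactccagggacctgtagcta
Odc1: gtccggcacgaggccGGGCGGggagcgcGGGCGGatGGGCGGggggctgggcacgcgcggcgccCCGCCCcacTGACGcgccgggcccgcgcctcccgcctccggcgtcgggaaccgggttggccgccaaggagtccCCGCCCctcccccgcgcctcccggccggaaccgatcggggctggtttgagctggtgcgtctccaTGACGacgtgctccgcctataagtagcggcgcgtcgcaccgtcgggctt
Several motifs were searched on both strands. The E-box, bound by factors of the Myc family, was spelled CACGTG. For the GC box, which Sp1 binds, the letters were GGGCGG. The core of a cyclic AMP response element was spelled TGACG in the search. Steroidogenic factor 1, the master regulator of steroid-making cells, was given the site AAGGTCA. The TATA box, found near many gene starts, was spelled TATAAA. No matches overlapped each other in these windows. *Odc1* held the GC box 5 times, at 235, 222, 214, 186 and 113 bases before the start, those at 186 and 113 on the other strand. It held the response element core 2 times, at 177 and 49 bases. *Ass1* held 1 match, a TATA box on the other strand at 60 bases, so that its capitals are the reverse complement of the letters searched. Over all 27457 rat promoters in the table, windows of this length held the GC box in 32.4%, the response element core in 19%, the TATA box in 13.1%, the E-box in 5.79% and the site of steroidogenic factor 1 in 3.77%. The share of G and C was 78.0% in *Odc1* and 51.2% in *Ass1*, against a median of 52.0% over those promoters.

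Signals are the authors' MAS5 intensities, on a linear scale on which the 2% trimmed mean is 100 on every array, so a signal has no unit of molecules. Group differences set each probe set only against itself on other arrays. Sums of markers, and words such as bright and dim, set different probe sets side by side and are rough. On an array 29.1% to 47.3% of probe sets had signals under 16, and no detection call was used, so signals near or under 16 have no tested floor. Differences are given as log2(signal + 16) of the first group minus the second, with the standard error (SE) of the fit. This scale understates the change of dim genes. The labelled cell types were set against marker lists. The summed signal of 8 Leydig markers was 370.0 to 1600 in stem, 14366 to 22449 in progenitor, 12355 to 22836 in immature, 21318 to 32220 in adult and 83.37 to 613.9 in bone stem cells. In stem Leydig cells *Star* made up most of that sum (mean 739.6), while *Cyp17a1* (mean 1.085) and *Lhcgr* (mean 12.0) were near 0. The bone stem arrays carried macrophage markers, with mean signals of 2094 for *Cd68* and 1992 for *Tyrobp*, against 29.74 and 18.07 in stem Leydig cells. Immature replicate 4 stood apart from its group: its 24 leukocyte markers summed to 11215, within the 8973 to 11310 of the progenitor arrays, while the lowest immature array had 4748. Its endothelial markers summed to 1398, against 613.7 to 796.4 on the other immature arrays. Its germ cell markers summed to 487.7, against 799.7 to 1271. Several results below are also given without immature replicate 4. The 5 measured erythroid markers summed to 3462 to 5394 in progenitor, 2492 to 5362 in immature, 270.4 to 702.7 in adult and 10.6 to 55.39 in stem Leydig cells. The ratio of 3′ to 5′ signal of beta-actin, a sign of RNA quality, was 6.346 on progenitor replicate 3 and 1.026 to 2.951 on the other arrays. It was 1.026 to 1.836 in stem Leydig and 2.384 to 2.951 in bone stem cells, with no overlap. The same ratio for *Gapdh* was 1.06 to 1.132 in stem Leydig and 1.303 to 1.334 in bone stem cells. On immature replicate 4 it was 1.524, against 1.134 to 1.177 on the other immature arrays. The part of these in the results below was not tested.

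*Ass1* separated the arrays most widely. Its signal was 7.53, 1.52, 13.2, 3.19 and 5.34 in stem Leydig cells. It was 2145, 2996 and 1842 in progenitor cells, then 2212, 3805, 4108 and 1705 in immature cells and 4555, 3903, 5983 and 4139 in adult cells. Bone stem cells had 9.58, 3.49 and 1.78. All 11 progenitor, immature and adult arrays were high and all 8 stem arrays of either kind were near 0, with no overlap. The log2 difference was 6.72 ± 0.25 (SE) for progenitor minus stem and 7.72 ± 0.23 for adult minus stem. With a pseudocount of 1 in place of 16 these came to 8.56 and 9.56. After that step the differences were small: 0.28 ± 0.26 for immature minus progenitor, where the arrays overlapped, and 0.72 ± 0.24 for adult minus immature, where they overlapped as well. Without immature replicate 4 the adult minus immature difference was 0.49, and without immature replicate 3 it was 0.91. Stem Leydig and bone stem cells overlapped, at a difference of 0.08 ± 0.25.

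*Asl*, the partner enzyme of *Ass1*, did not show that step. Its signal was 119.3, 145.8, 176.9, 134.4 and 123.1 in stem, 186.1, 216.2 and 171.7 in progenitor, 158.9, 128.7, 132.8 and 217.4 in immature, 160.0, 160.4, 163.1 and 162.6 in adult and 69.8, 77.4 and 83.4 in bone stem cells. The 4 Leydig groups lay in 1 band, and bone stem cells lay below all of it. The differences came to 0.42 ± 0.15 (SE) for progenitor minus stem, 0.20 ± 0.14 for adult minus stem and 0.74 ± 0.15 for stem minus bone. Where *Ass1* differed by 6.72 on the log2 scale between progenitor and stem cells, *Asl* therefore differed by less than 1 doubling, and stem and progenitor arrays overlapped.
A caution applies to *Asl*. The values above are from the probe set whose accession belongs to *Asl*. A second probe set carries the symbol *Asl*, but its accession belongs in RefSeq to *Hnrnpab*, an RNA-binding protein. It is 1 of 12 such disagreements among the 2901 named probe sets with a RefSeq accession. Over the 19 arrays the second probe set had r = 0.688 with the first and -0.17 with the probe set used for *Hnrnpab*, as a description of arrays that share groups and scaling. Which of these transcripts it reads is not settled by these values. It gave 0.35 ± 0.17 (SE) for progenitor minus stem and 0.20 ± 0.17 for stem minus bone. By this alternative, chosen after seeing the data, neither difference was past the threshold used below, while both were with the first probe set.

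**Figure D1:**
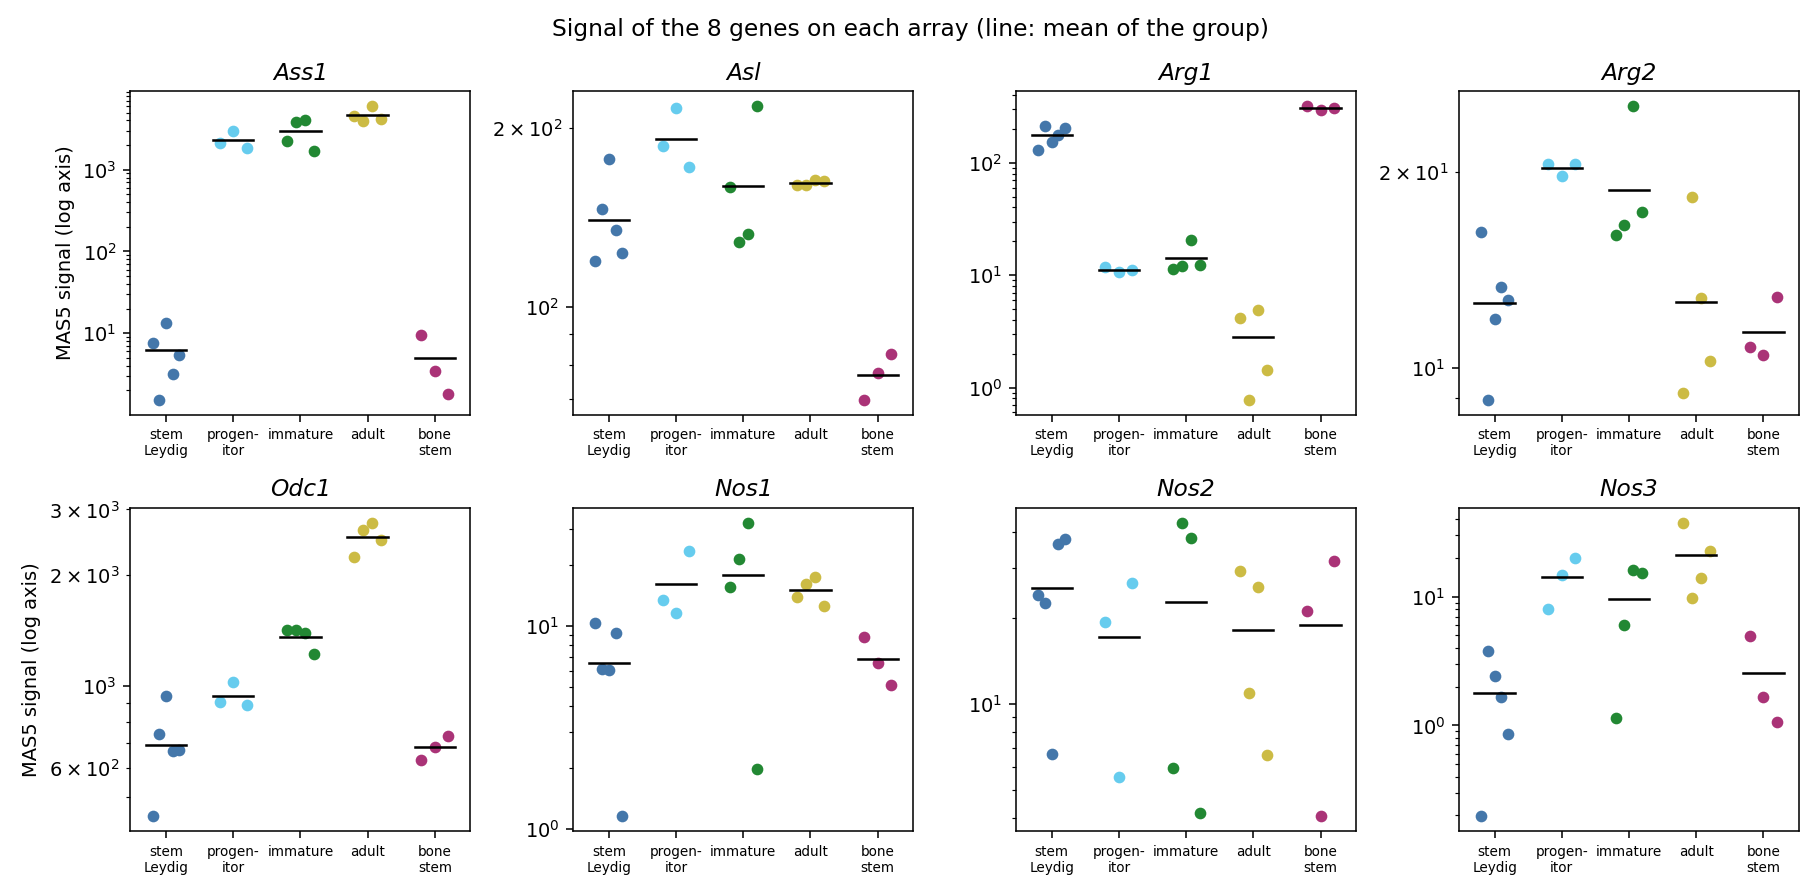
MAS5 signal (log axis, its range set for each gene) of the 8 genes on each of the 19 arrays, by group. Points are arrays and lines are group means; *Ass1* is near 0 on the 8 stem arrays and at 1705 or more on the other 11, while *Arg1* is at 130.0 or more on the stem arrays and at 20.4 or less on the others.

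*Arg1*, the cytosolic arginase, ran the other way. Its signal was 130.0, 212.0, 154.3, 174.8 and 205.8 in stem Leydig cells, 11.8, 10.7 and 11.2 in progenitor cells, 11.5, 12.0, 20.4 and 12.4 in immature cells and 4.14, 0.776, 4.85 and 1.43 in adult cells. Bone stem cells had the highest signals, 318.8, 296.2 and 308.9. Stem Leydig arrays were all above the later stages and all below the bone stem arrays, with no overlap on either side, and adult arrays were below all progenitor and immature arrays. The log2 difference was -2.79 ± 0.16 (SE) for progenitor minus stem, -3.33 ± 0.14 for adult minus stem and -0.78 ± 0.16 for stem minus bone. It was 0.13 ± 0.16 for immature minus progenitor and -0.67 ± 0.15 for adult minus immature, the second among signals near or under 16. A pseudocount of 1 gave -2.12 for adult minus immature, and one of 64 gave -0.22.

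Markers of other cell types differed between these groups too, some along with *Arg1* and some not. *Arg1* is also a gene of macrophages in rodents. The 24 leukocyte markers summed to 842.8 to 1365 in stem Leydig, 8973 to 11310 in progenitor, 4748 to 11215 in immature, 2021 to 5034 in adult and 16887 to 21514 in bone stem cells. They were highest in bone stem cells, as *Arg1* was, but lowest in stem Leydig cells, where *Arg1* was at 130.0 or more. The list mixes macrophage and lymphocyte markers, and in progenitor cells *Cd7* averaged 2324 and *Cd68* 47.68. Of the 24, 16 were called higher and 1 lower in progenitor than in stem cells, beside 26.8% and 18.5% of all genes. The 1 was *Cd14*, at 39.29 in progenitor and 153.7 in stem cells. The summed signal of 10 smooth muscle markers followed the *Arg1* split of stem against later arrays. It was 6605 to 14191 in stem Leydig and 9642 to 13760 in bone stem cells. In later stages it was 963.7 to 1038 in progenitor, 900.0 to 1156 in immature and 819.6 to 2339 in adult cells. Single markers did not all do so. Of the 10, 0 were called higher and 8 lower in progenitor than in stem cells, beside 26.8% and 18.5% of all genes. *Des* averaged 1094 in stem Leydig, 24.84 in bone stem and 52.45 in progenitor cells. The part of other cells in the *Arg1* levels was not tested. In bulk samples, fewer cells of a type and less RNA per cell cannot be told apart.

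**Figure D2:**
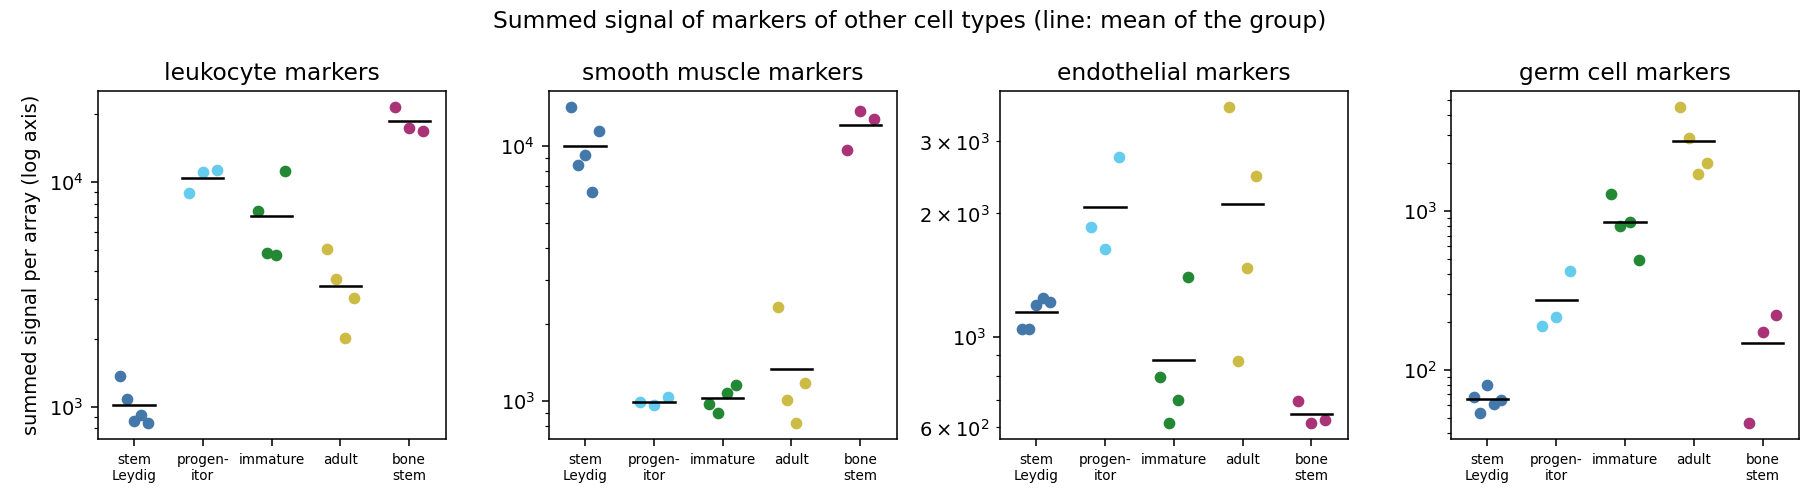
Summed signal per array (log axis, its range set for each panel) of 24 leukocyte, 10 smooth muscle, 13 endothelial and 11 germ cell markers in the 5 groups. Points are arrays and lines are group means; bone stem arrays have the highest leukocyte sums, 16887 to 21514, and adult arrays the highest germ cell sums, 1699 to 4494.

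*Arg2*, the mitochondrial arginase, was dim on all arrays. Its signal was 16.2, 8.94, 11.9, 13.3 and 12.7 in stem, 20.6, 19.7 and 20.6 in progenitor, 15.98, 16.6, 25.2 and 17.4 in immature, 9.15, 18.3, 12.8 and 10.3 in adult and 10.8, 10.5 and 12.9 in bone stem cells. Progenitor arrays lay above all stem Leydig arrays, and the other neighbouring stages overlapped. Its log2 difference came to 0.35 ± 0.13 (SE) for progenitor minus stem and -0.28 ± 0.13 for adult minus immature. Quantile normalization put the first at 0.15 and median centring of each array at 0.12.

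*Odc1*, which makes putrescine and is the regulated entry to the polyamines, was bright in every group and highest in adult cells. Its signal was 444.1, 743.4, 937.1, 667.5 and 670.1 in stem, 905.4, 1027 and 891.0 in progenitor, 1413, 1419, 1387 and 1218 in immature, 2231, 2646, 2764 and 2479 in adult and 630.2, 682.3 and 734.2 in bone stem cells. Adult arrays were all above immature arrays and these all above progenitor arrays, while progenitor arrays overlapped 1 high stem array and stem Leydig overlapped bone stem. On the log2 scale *Odc1* differed by 0.47 ± 0.16 (SE) for progenitor minus stem, 0.52 ± 0.17 for immature minus progenitor, 0.89 ± 0.16 for adult minus immature and 1.88 ± 0.15 for adult minus stem. Stem minus bone was -0.01 ± 0.16. *Odc1* thus differed in steps along the stages, where *Ass1* had 1 large step. Quantile normalization gave 0.57 for adult minus immature, and median centring gave 0.24 for progenitor minus stem.

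The 3 nitric oxide synthases were dim, with most signals under 40. *Nos1* had 10.3, 6.12, 6.03, 9.16 and 1.15 in stem, 13.3, 11.5 and 23.2 in progenitor, 15.5, 21.4, 32.2 and 1.97 in immature, 13.8, 16, 17.4 and 12.4 in adult and 8.78, 6.56 and 5.09 in bone stem cells. Progenitor and adult arrays were all above the stem arrays of both kinds, and immature replicate 4, at 1.97, lay among those stem arrays. Its log2 differences were 0.50 ± 0.22 (SE) for progenitor minus stem and 0.47 ± 0.20 for adult minus stem.

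*Nos2* had 24.2, 22.6, 6.70, 36.5 and 38.0 in stem, 19.4, 5.54 and 26.5 in progenitor, 5.99, 43.3, 38.1 and 4.15 in immature, 29.4, 11.0, 25.6 and 6.63 in adult and 21.3, 4.04 and 31.7 in bone stem cells. All 5 groups overlapped, and the spread within a group was as wide as that between groups. Its differences ran from -0.32 ± 0.39 (SE) for progenitor minus stem to 0.27 ± 0.39 for stem minus bone. The sign of the immature minus progenitor, adult minus immature and stem minus bone differences turned when a single array was left out. *Nos2* is the synthase of activated macrophages, and on the bone stem arrays, which carry macrophage markers, its signals lay within the range of stem Leydig arrays except for 1 that was lower. The part of macrophages in the *Nos2* signal was not tested.

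*Nos3* had 0.196, 3.79, 2.43, 1.67 and 0.855 in stem, 8.09, 14.6 and 19.9 in progenitor, 1.15, 5.99, 16 and 15.2 in immature, 37.6, 9.81, 14.1 and 22.5 in adult and 4.98, 1.67 and 1.06 in bone stem cells. Progenitor and adult arrays lay above all stem arrays, and the 3 later stages overlapped. *Nos3* differed on the log2 scale by 0.75 ± 0.21 (SE) for progenitor minus stem, -0.27 ± 0.22 for immature minus progenitor, 0.52 ± 0.21 for adult minus immature and 1.0 ± 0.20 for adult minus stem. Endothelial markers, of the cell type that *Nos3* is known for, differed between the same groups. Of 13 measured, 8 rose and 2 fell in progenitor against stem cells, beside 26.8% and 18.5% of all genes. In immature against progenitor cells 0 rose and 3 fell, beside 1.33% and 0.612%. In adult against immature cells 8 rose and 0 fell, beside 12.0% and 17.3%. The endothelial sums were 1639 to 2749 in progenitor, 613.7 to 1398 in immature, 869.3 to 3637 in adult and 1044 to 1246 in stem Leydig cells. Their mean was 1149 in stem and 877.1 in immature cells, where *Nos3* averaged 1.786 and 9.591. That sum mixes markers that went both ways. *Eng*, *Ramp2*, *Esam*, *Egfl7* and *Flt1* averaged lower in immature than in stem cells, and the other measured markers averaged higher. *Eng* averaged 367.8 in stem and 76.88 in immature cells, while *Pecam1* averaged 6.155 and 58.81 and *Cldn5* 13.23 and 114.4. The part of endothelial cells in the *Nos3* signal was not tested.

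**Figure D3:**
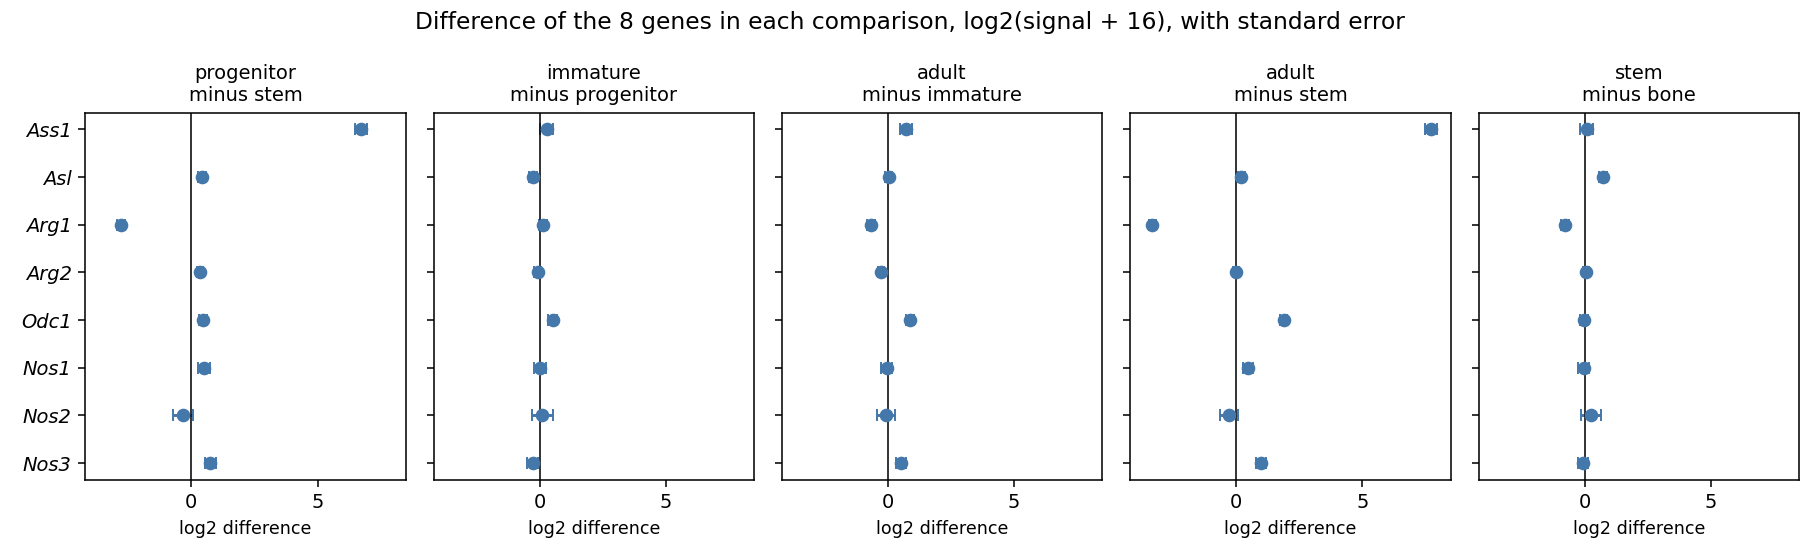
Difference of log2(signal + 16) for the 8 genes in each of the 5 comparisons. Points are fitted differences and bars their standard errors; *Ass1* stands at 6.72 and 7.72 in the panels against stem Leydig cells, *Arg1* at -2.79 and -3.33, and the other genes within 2 of 0.

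Counted at an adjusted p under 0.05 in the fit over all probe sets, 5 of the 8 genes were higher and 1 lower in progenitor than in stem cells, where 26.8% of all genes were called higher and 18.5% lower. For immature minus progenitor the counts were 0 and 0, with 1.33% of all genes higher and 0.612% lower. For adult minus immature 2 were higher (*Ass1*, *Odc1*) and 1 lower (*Arg1*), with 12.0% and 17.3% of all genes. For adult minus stem 3 were higher (*Ass1*, *Odc1*, *Nos3*) and 1 lower (*Arg1*), with 27.7% and 26.0% of all genes. For stem minus bone 1 was higher (*Asl*) and 1 lower (*Arg1*), with 9.73% and 14.1% of all genes. Since the genes were picked with their levels known, nothing is read from these counts. In progenitor minus stem only *Ass1*, *Nos3* and *Arg1* were past the threshold under median centring or without progenitor replicate 1 or 2. *Nos3* and *Arg2* were not past it without progenitor replicate 3, and *Asl*, *Arg2* and *Odc1* each fell short without at least 1 of the 5 stem arrays. The *Ass1* count for adult minus immature was lost without immature replicate 1 or 4, or without adult replicate 1, 3 or 4. It was also lost with quantile normalization, a pseudocount of 1, array quality weights and a fit of the compared groups alone. With quantile normalization and with array quality weights *Nos3* was past the threshold in its place, so the count stayed at 3.

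The order of group means differed from gene to gene. *Ass1* ran bone stem, stem Leydig, progenitor, immature, adult, and only the step between stem Leydig and progenitor had no overlap. *Odc1* ran in the same order, with gaps between progenitor and immature and between immature and adult arrays. *Arg1* ran adult, progenitor, immature, stem Leydig, bone stem, with gaps at each step but progenitor to immature. *Asl* ran bone stem, stem Leydig, immature, adult, progenitor, and neighbours did not overlap at the lowest step or between adult and progenitor cells. *Arg2* ran bone stem, stem Leydig, adult, immature, progenitor, and all neighbours overlapped. *Nos1* ran stem Leydig, bone stem, adult, progenitor, immature, with a gap only between bone stem and adult arrays. *Nos2* ran progenitor, adult, bone stem, immature, stem Leydig, and *Nos3* ran stem Leydig, bone stem, immature, progenitor, adult. For these 2 genes every neighbouring pair of groups overlapped, with means closer than the larger SD of the pair. Without immature replicate 4 the immature mean of *Nos2* was 29.11, above the 25.6 of stem Leydig cells, so that these highest groups changed places. Without it the immature arrays of *Asl*, at 158.9 or less, also no longer overlapped the adult arrays, at 160.0 or more.

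The genes with the most similar pattern were sought by Pearson's r of log2(signal + 16) over the 19 arrays, among 7109 genes whose highest group mean was at or above the median over genes, 131.1. As the arrays fall into the same few groups, high values are common, and r is a description. For *Ass1* these were *Scarb1*, the receptor that takes up cholesterol esters (r = 0.997), *Gstm7*, a glutathione transferase (0.996), and *Abhd3*, a phospholipase (0.996). *Scarb1* averaged 124.1 in stem, 1755 in progenitor, 1909 in immature, 2675 in adult and 136.7 in bone stem cells. For *Arg1* they were *Fam98a* (0.987), *Rai14*, an actin-associated protein (0.987), and *Gpx3*, the secreted glutathione peroxidase (0.986). *Gpx3* averaged 1386 in stem, 35.34 in progenitor, 28.78 in immature, 26.77 in adult and 2650 in bone stem cells. For *Odc1* they were *Sccpdh* (0.966), *Dhrs11*, a short-chain dehydrogenase (0.963), and *Nat8f1* (0.962). For *Asl* the highest were lower, *Anapc16* (0.894), *U2af1*, a splicing factor (0.894), and *Srsf1*, another (0.890). *Arg2* and the 3 synthases were too dim for this search.

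Around the 8 genes, 85 further genes were listed in 5 groups, of which 71 had a named probe set: arginine transport (11), urea cycle and arginine, ornithine and citrulline metabolism (15), polyamine metabolism (16), nitric oxide cofactor and regulators (15) and nitric oxide receptors and targets (14). In progenitor against stem cells 21 of the 71 rose and 20 fell, beside 26.8% of all genes called higher and 18.5% lower. The median difference was 0.02, against 0.08 over all genes. Under median centring of each array the split was 12 and 27, and the median of all genes moved to -0.14. In the list of urea cycle and related metabolism 6 of 15 rose and 3 fell. *Prodh*, which starts proline breakdown, rose (76.96 ± 28.75 in progenitor and 3.315 ± 2.016 in stem cells, SD, n = 3 and 5; log2 difference 2.23, adjusted p = 4.18e-09). *Gamt*, the last enzyme of creatine synthesis, rose by 2.19 (adjusted p = 5.01e-09), at 599.9 ± 44.86 in progenitor and 124.3 ± 51.65 in stem cells. *Aldh18a1*, which makes the precursor of proline and ornithine from glutamate, fell by 1.40 (adjusted p = 3.89e-09), at 151.7 ± 14.13 in progenitor and 427.4 ± 45.86 in stem cells.

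In arginine transport 3 of 11 rose and 3 fell between these stages, where 26.8% of all genes were called higher and 18.5% lower. *Slc7a3*, a cationic amino acid transporter, averaged 9.723 ± 4.884 in progenitor and 108.0 ± 43.52 in stem cells (SD; log2 difference -2.22, adjusted p = 1.83e-07). *Slc7a7*, the light chain of an arginine exporter, averaged 25.21 ± 2.811 in progenitor and 152.6 ± 27.05 in stem cells (-2.02, adjusted p = 3.62e-08). In polyamine metabolism 3 of 16 rose and 6 fell. *Azin1*, which shields ornithine decarboxylase from its antizymes, fell by 1.39 (adjusted p = 5.34e-07). Among regulators of nitric oxide 5 of 15 rose and 5 fell, and *Ddah1*, which breaks down the synthase inhibitor dimethylarginine, averaged 146.3 ± 37.37 in progenitor and 964.0 ± 276.6 in stem cells (-2.57, adjusted p = 1.81e-08). Among receptors and targets 4 of 14 rose and 3 fell. *Gucy1b1*, the beta subunit of the nitric oxide receptor guanylate cyclase, fell by 2.10 (adjusted p = 3.92e-06). The alpha subunit *Gucy1a1* went the other way. It rose by 0.91 (adjusted p = 0.00795), at 185.1 ± 22.39 in progenitor and 100.9 ± 63.42 in stem cells, with overlap. *Pde9a*, a cyclic GMP phosphodiesterase, averaged 88.81 ± 20.70 in progenitor and 2.442 ± 0.9104 in stem cells (2.49, adjusted p = 6.58e-11).

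**Figure D4:**
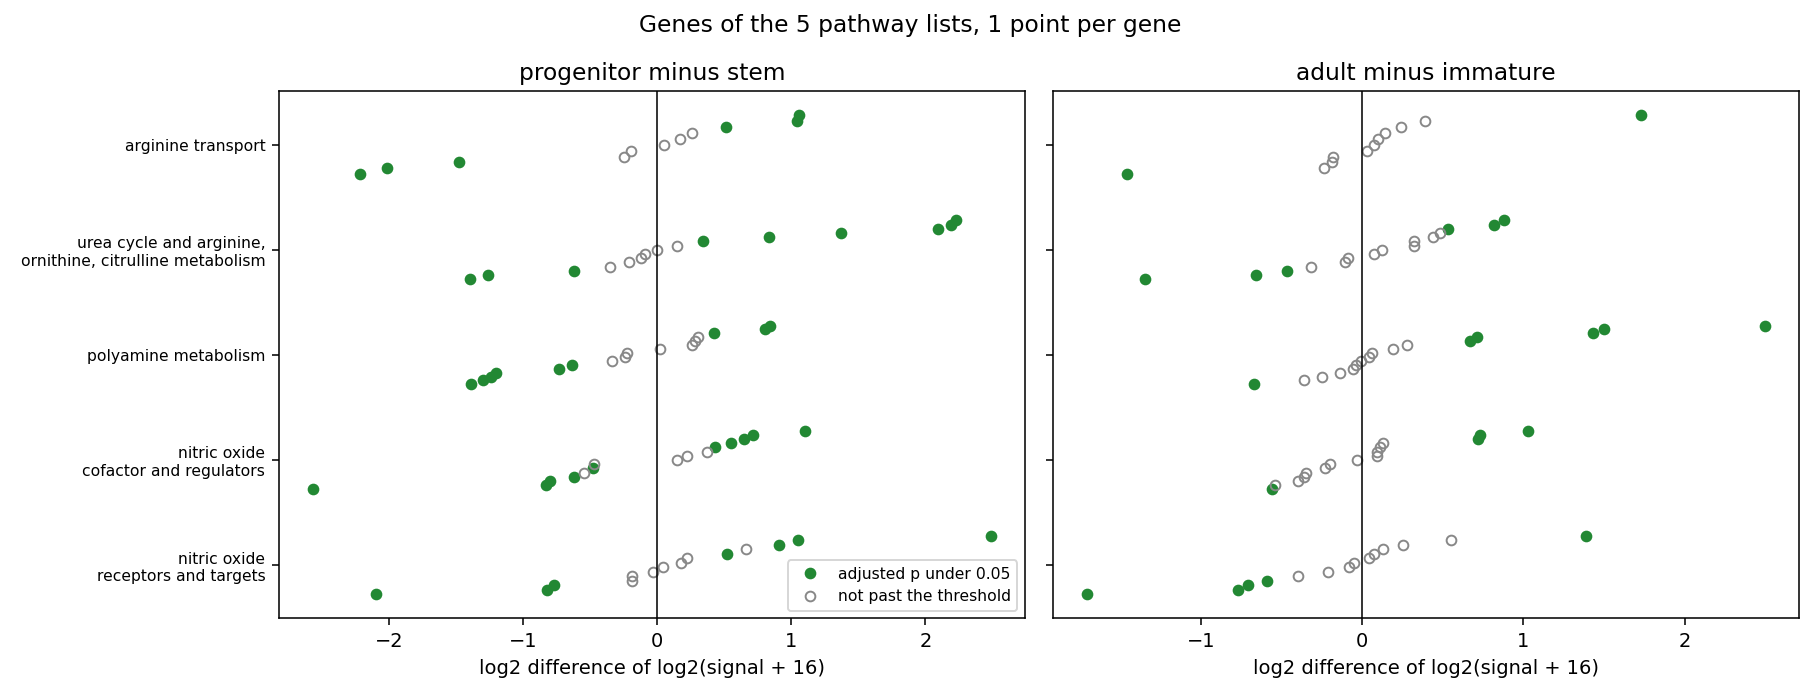
Difference of log2(signal + 16) for the 71 measured genes of the 5 lists, 1 point per gene, for progenitor minus stem (left) and adult minus immature (right). Filled points have an adjusted p under 0.05. They number 41 on the left, 21 of them above 0, and 23 on the right, 13 of them above 0. Over all genes 26.8% were called higher and 18.5% lower on the left, and 12.0% and 17.3% on the right.

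In immature against progenitor cells 1.33% of all genes were called higher and 0.612% lower. Of the 71, 1 rose and 0 fell, with medians of 0.00 for the lists and for all genes. The one was *Asns*, asparagine synthetase, which averaged 1232 ± 352.7 in immature and 475.4 ± 19.19 in progenitor cells (SD; log2 difference 1.29, adjusted p = 0.00122). Immature replicate 4 was set apart for a leukocyte sum like that of progenitor arrays. Leaving it out can therefore favour differences from those arrays. Without immature replicate 4, 8 genes were called, the top of the range of 1 to 8 over arrays left out singly. Besides *Asns* at 1.53 they were *Oaz3* (1.77), *Dlg4* (0.82), *Prodh* (0.77), *Slc7a7* (0.74), *Cav1* (-0.67), *Slc7a6* (-0.81) and *Pde2a* (-1.15). *Cav1* (caveolin, which binds endothelial synthase), *Dlg4* (a scaffold of neuronal synthase) and *Pde2a* (a cyclic nucleotide phosphodiesterase) are named here as all calls of that count, after their values were seen. With all arrays, 6 of 11 germ cell markers rose and 0 fell, beside 1.33% and 0.612% of all genes. Their sum was 189.0 to 416.9 in progenitor cells, 487.7 on immature replicate 4 and 799.7 to 1271 on the other immature arrays. The part of germ cells in the *Oaz3* difference was not tested.

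In adult against immature cells 13 of the 71 rose and 10 fell, beside 12.0% of all genes called higher and 17.3% lower. The median was 0.04, against -0.06 over all genes. Under median centring the split was 18 and 5, and the median of all genes was 0.12. Polyamine genes had 5 rises and 1 fall among 16, beside the higher *Odc1*. *Sat1*, which acetylates spermidine and spermine for breakdown and export, averaged 2673 ± 270.2 in adult and 946.7 ± 186.0 in immature cells (SD, n = 4 each; log2 difference 1.5, adjusted p = 1.73e-06). *Oaz3*, an antizyme of spermatids, averaged 622.4 ± 458.9 in adult and 84.38 ± 37.07 in immature cells (2.50, adjusted p = 5.68e-05). The 11 measured germ cell markers summed to 1699 to 4494 in adult and 487.7 to 1271 in immature cells, and the part of germ cells in the *Oaz3* signal was not tested. *Slc7a7* rose by 1.73 (adjusted p = 9.65e-07), at 189.7 ± 41.91 in adult and 46.17 ± 13.27 in immature cells, and *Slc7a6*, another light chain, fell by 1.46 (adjusted p = 2.06e-05). *Qdpr*, which regenerates the synthase cofactor tetrahydrobiopterin, rose by 0.73 (adjusted p = 0.00036). *Pde9a* fell by 1.71 (adjusted p = 7.87e-08) and *Aldh18a1* by 1.35 (adjusted p = 3.51e-08).

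Over the whole span, adult against stem cells, 22 of the 71 rose and 19 fell, beside 27.7% of all genes called higher and 26.0% lower. The median was 0.01, against 0.03 over all genes. In the list of urea cycle and related metabolism 8 of 15 rose and 2 fell. This list also holds genes of proline, creatine and glutamine metabolism, and its split was not tested. *Glul*, glutamine synthetase, averaged 4015 ± 538.1 in adult and 334.0 ± 49.23 in stem cells (SD, n = 4 and 5; log2 difference 3.53, adjusted p = 1.74e-13), and *Prodh* averaged 197.4 ± 9.961 in adult and 3.315 ± 2.016 in stem cells (3.47, adjusted p = 5.95e-13). *Aldh18a1* fell by 2.65 (adjusted p = 2.9e-14). *Oaz3* rose by 4.39 (adjusted p = 2e-09). In this comparison the germ cell sums were 1699 to 4494 in adult and 53.07 to 80.5 in stem cells. Polyamine genes split 5 and 6 among 16: *Srm*, spermidine synthase, the step after *Odc1*, averaged 90.92 ± 6.123 in adult and 355.9 ± 64.46 in stem cells (-1.78, adjusted p = 9.89e-10), against the difference of 1.88 for *Odc1*. *Amd1*, another gene of polyamine synthesis, rose by 1.94 (adjusted p = 8.44e-08), at 1030 ± 194.1 in adult and 266.6 ± 98.14 in stem cells. *Ddah1* fell by 2.57 (adjusted p = 2.68e-09), *Slc7a3* by 2.03 (adjusted p = 1.08e-07) and *Vasp*, a cytoskeletal target of cyclic GMP signalling, by 1.88 (adjusted p = 2.29e-11). *Slc3a2*, the heavy chain that pairs with *Slc7a6* and *Slc7a7*, rose by 1.65 (adjusted p = 1.98e-08).

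In stem Leydig against bone stem cells 9.73% of all genes were called higher and 14.1% lower. Of the 71, 12 rose and 7 fell, with a median of 0.08 against 0.00 over all genes. Median centring gave 8 and 9. Both dimethylarginine hydrolases were higher in stem Leydig cells: *Ddah1* averaged 964.0 ± 276.6 in stem Leydig and 346.1 ± 76.32 in bone stem cells (SD, n = 5 and 3; log2 difference 1.42, adjusted p = 0.000144), and *Ddah2* 184.3 ± 49.76 in stem Leydig and 63.62 ± 26.28 in bone stem cells (1.34, adjusted p = 0.000126). *Gucy1b1* rose by 1.17 (adjusted p = 0.00469) and *Slc25a15*, the mitochondrial ornithine carrier, by 0.48 (adjusted p = 0.0109). *Gatm*, which uses arginine to begin creatine synthesis, averaged 10.85 ± 4.161 in stem Leydig and 71.74 ± 32.05 in bone stem cells (-1.66, adjusted p = 6.89e-06). *Gch1*, the first enzyme of tetrahydrobiopterin synthesis, fell by 1.04 (adjusted p = 5.13e-05) and *Sat2* by 1.06 (adjusted p = 5.59e-05). In the same comparison 0 of 24 leukocyte markers rose and 18 fell, and the 3′ to 5′ ratio of beta-actin was 1.026 to 1.836 in stem Leydig and 2.384 to 2.951 in bone stem cells. The part of those cells and of RNA quality in these differences was not tested. Without bone stem replicate 3 the count of called genes was 12, and with array quality weights it was 33.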

How the data were processed

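RNA of 19 samples was hybridised to Affymetrix rat arrays, and cRNA was made from 6 ug of it, as the labels' protocols state. The deposited intensities are linear signals; per the submitters' processing notes the authors made them with MAS5 in GCOS, with no version given. The table was already scaled, and held 31099 probe sets, of which 57 controls were left out and 31042 tested. Gene symbols came from the platform annotation: 20826 probe sets had 1 symbol, 436 several and 9780 none. Array medians were 18.9 to 36.6, and the number of arrays limits the precision.

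Where a gene had several probe sets, that of the highest mean was taken, except for *Asl*, which was read from the probe set whose accession belongs to it. *Nos2* also appears on a probe set shared with a pseudogene, which has several symbols and was not used. All arrays entered 1 model with 5 group means on log2(signal + 16) in limma 3.58.1 (R 4.3.3) with an intensity trend, and p-values were adjusted by Benjamini-Hochberg over the 31042 probe sets, with a threshold of 0.05. The model was tested on simulated data with independent normal noise, which does not show how it behaves with technical replicates or outlying arrays. Tables were read with Python 3.11.15 and pandas 2.3.3, and plots drawn with matplotlib 3.10.9. Promoter sequences came from RefSeq, where 5 of the 8 genes had an entry.

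The 8 genes, the lists and the markers were chosen with earlier results of these data known. From the lists, the text names in each comparison the 3 largest rises and 3 largest falls among called genes and the called gene with the smallest adjusted p of each list. Other probe sets of genes so named gave 15 differences. Of these, 7 were called in the same direction, 0 in the opposite direction and 8 were not called. The sign was opposite in 3, none of them called. *Gucy1a1* and *Amd1* were added outside this rule, after their values were seen, and are in no count of named genes. Alternatives were other scalings, pseudocounts and filters, no trend, array weights, fitting the compared groups alone, the replicate block, averaging a gene's probe sets, leaving out arrays, and a 2-fold minimum.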

Additional observations from a re-analysis of the deposited data

Results flagged for a closer look

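In groups of 4 or 5 arrays, 10 of 93 groups tested (10.8%) held an array far from the others by Dixon's criterion, which chance meets in about 1 in 20 groups. Among the 8 genes, *Arg1* was at 20.42 on immature replicate 3, with 11.46 to 12.43 on the other immature arrays. *Arg2* was at 25.22 on the same array, with 15.98 to 17.35 on the others. *Odc1* was at 1218 on immature replicate 4, with 1387 to 1419 on the others. Among the pathway genes named, *Asns* was at 712.4 on immature replicate 4, with 1337 to 1495 on the others, and *Slc3a2* at 2026 on immature replicate 1, with 2873 to 2997 on the others. In stem Leydig cells, *Aldh18a1* was at 346.9 on replicate 3, with 438.2 to 457.1 on the others, and *Azin1* at 487.8 on replicate 4, with 656.2 to 687.4. *Gamt* was at 216.0 on stem replicate 3, with 93.99 to 108.2 on the others, and *Vasp* on the same array at 756.9, with 871.6 to 918.9. *Srm* was at 247.1 on stem replicate 1, with 358.4 to 407.4 on the others.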

How the results depend on the processing

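For the differences of the 8 genes, 720 of 753 alternative values stayed within 1 SD between replicates, 33 moved further, mostly with a pseudocount of 1 (13) or 64 (10), and 0 differences past the threshold changed sign. With a 2-fold minimum the called pathway genes numbered 20 in progenitor minus stem, 9 in adult minus immature, 22 in adult minus stem and 6 in stem minus bone, and the 8 genes gave 2, 0 and 0 in progenitor minus stem, adult minus immature and stem minus bone. In progenitor minus stem the 8 genes gave 3 with median centring and 3 to 5 when 1 array was left out. In immature minus progenitor the pathway genes called were 3 with quantile normalization, 2 with median centring, 2 with a pseudocount of 64, 4 without the lowest 40% of probe sets, 6 with array weights, 0 with only the groups compared, 7 without progenitor replicate 3 and immature replicate 4, and 1 to 8 when 1 array was left out. Of the 8 genes, 1 (*Odc1*) was past the threshold there with array weights. In adult minus immature the 8 genes gave 2 to 4 when 1 array was left out, 2 with a pseudocount of 1 or 64 and 2 with only the groups compared. In stem minus bone the pathway genes called were 33 with array weights and 12 to 20 when 1 array was left out, and the 8 genes gave 1 with a pseudocount of 1 and 1 with the other *Asl* probe set. The cause of these changes was not tested. Deviations of same-numbered arrays from their group means had r from -0.34 to 0.30 over 33 pairs, 9 of them above 0.1. Differently numbered arrays were not compared, so these values cannot tell whether the numbers pair the arrays. With the replicate block, 3 of the 8 genes were past the threshold in progenitor minus stem and 2 pathway genes in immature minus progenitor. Without detection calls, differences among signals under 16 (*Arg2*, the synthases, *Arg1* after the stem stage) have limited precision.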
